A study of Mus musculus with 8 samples.

Results

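The D-type cyclins and their kinases and inhibitors are described here by 10 genes, named as a set: Ccnd1, Ccnd2, Ccnd3, Cdk4, Cdk6, Cdkn1a, Cdkn1b, Cdkn1c, Cdkn2a and Cdkn2c. They were taken by name and not by their values, out of 27998 genes in the single-cell table and 55450 in the bulk table, and all 10 were found in both. The members were read in the median eminence (ME), the strip of hypothalamus at the floor of the third ventricle that holds tanycytes, elongated cells related to ependyma. For single cells, the ME of 10 wild-type female mice, 2 months of age in the labels, was pooled into 1 droplet library of 990 cells. For bulk RNA, the ME was dissected from 3 control mice, labelled WT, and from 4 mutant mice, labelled Rax::BrafV600E. The strain of all samples is C57BL/6 in the labels and C57BL/6N in the methods of the study. In the mutants, a tamoxifen-dependent Cre recombinase made from the Rax locus switches on the V600E form of the kinase Braf in Rax-expressing cells and in their descendants. The labels give the bulk mice an age of 2 months, while the methods of the study put the dissection 2 months after tamoxifen. Whether the controls carried Cre or had tamoxifen is not given in the labels.

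D-type cyclins bind the kinases CDK4 and CDK6, and the complexes phosphorylate the retinoblastoma protein, which frees E2F factors and lets a cell pass from G1 into S phase. Mitogen signals through RAF and ERK raise Ccnd1 transcription in many cells. The Cip/Kip proteins p21, p27 and p57 (Cdkn1a, Cdkn1b, Cdkn1c) bind cyclin-CDK complexes, whereas the INK4 proteins p16 and p18 (Cdkn2a, Cdkn2c) bind CDK4 and CDK6 themselves. Cdkn2a also encodes p19Arf from another reading frame, and a strong oncogene can raise p16 and p21 in cells that stop dividing, a state called oncogene-induced senescence. The bulk comparison asks which of these genes differ in whole dissected ME when Rax-expressing cells and their descendants carry mutant Braf. It reads all cell types of the ME together.

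Sequences around the transcription starts are shown for 3 genes on which the results below turn: Cdkn1a, the inhibitor with the largest positive difference in mutant ME, and Cdk4 and Cdkn2c, which were highest in oligodendrocyte precursor cell (OPC)-like cells. Each window runs from 250 bases before to 50 bases after a RefSeq start on GRCm38.p6, on the gene's own strand. The table held 11 windows for 7 of the genes, and none for Ccnd1, Ccnd2 and Cdkn1c. Capitals mark the GC box (GGGCGG) and the E-box (CACGTG), each searched on both strands.
Cdkn1a, upstream start (chr17:29090729-29091028, plus strand): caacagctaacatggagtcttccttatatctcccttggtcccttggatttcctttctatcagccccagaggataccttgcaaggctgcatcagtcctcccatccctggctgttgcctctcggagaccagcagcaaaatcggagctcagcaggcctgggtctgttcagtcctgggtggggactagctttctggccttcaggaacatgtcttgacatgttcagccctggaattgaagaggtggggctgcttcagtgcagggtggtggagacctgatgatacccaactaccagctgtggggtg
Cdkn1a, downstream start (chr17:29093519-29093818, plus strand): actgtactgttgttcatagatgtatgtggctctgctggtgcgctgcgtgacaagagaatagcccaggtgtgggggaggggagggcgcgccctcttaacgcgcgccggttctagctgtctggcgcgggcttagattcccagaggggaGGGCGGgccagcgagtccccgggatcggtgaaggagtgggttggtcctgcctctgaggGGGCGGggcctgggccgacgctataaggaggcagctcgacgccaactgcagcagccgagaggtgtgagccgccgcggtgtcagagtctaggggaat
Cdk4 (chr10:127063285-127063584, plus strand): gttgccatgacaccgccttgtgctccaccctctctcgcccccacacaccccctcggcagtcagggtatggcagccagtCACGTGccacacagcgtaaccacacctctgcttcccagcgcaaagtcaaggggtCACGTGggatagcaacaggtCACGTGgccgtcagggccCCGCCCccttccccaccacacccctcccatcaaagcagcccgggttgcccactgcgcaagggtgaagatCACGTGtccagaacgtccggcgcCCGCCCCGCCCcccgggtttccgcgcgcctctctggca
Cdkn2c (chr4:109666707-109667006, minus strand): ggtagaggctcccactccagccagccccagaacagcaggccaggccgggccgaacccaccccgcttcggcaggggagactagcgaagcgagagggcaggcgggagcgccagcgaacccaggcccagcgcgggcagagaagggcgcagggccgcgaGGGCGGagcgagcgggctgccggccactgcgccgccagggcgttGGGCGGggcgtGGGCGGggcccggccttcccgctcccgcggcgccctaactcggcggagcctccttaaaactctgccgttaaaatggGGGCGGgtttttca
A GC box was in 8 of the 11 windows and in 35.7% of 32851 RefSeq windows of the same length. An E-box was in 3 of the 11 and in 7.15% of all windows, and the Cdk4 window alone held 4 of them. The upstream Cdkn1a window held neither. Cdkn2c had a further window, not printed (chr4:109665323-109665622, minus strand), with 0 GC boxes, 1 CCAAT box and 1 E-box. A match or its absence says nothing of which factors bind there. The TATA box (TATAAA), the ETS core (CCGGAAG) and the CCAAT box were in 1, 1 and 4 of the 11 windows, against 13.6%, 8.86% and 37.4% of all. The cyclic AMP element (TGACGTCA), the AP-1 site (TGACTCA) and the E2F site (TTTGGCGC) were in none, against 1.79%, 5.20% and 0.514% of all.

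The single-cell table held 9846289 unique molecular identifiers (UMIs), between 3284 and 57119 a cell, and the bulk libraries held between 4928456 and 13816596 counts. The number of genes with a count ran from 17874 to 40852 in the bulk libraries, and it was lowest in controls 3 and 2 and mutant 1. Cells fell into 11 clusters. Of these, 10 were named by marker genes, and the remaining 23 cells, led by Krtdap, Nov and Slc47a1, were left unnamed. The tanycyte-like cluster (178 cells) had 10 of 12 tanycyte markers at 3 times the level of other cells, and the OPC-like cluster (60 cells) had 8 of 8 OPC markers. The tanycyte-like cluster also had 5 of 8 astrocyte markers, and the ependymal-like and unnamed clusters 3 of 8 each. No cluster was named after astrocytes, so astrocytes may lie among the tanycyte-like cells. The macrophage or microglia-like cluster also had 4 of 5 mast cell markers. No cluster met the naming rule for tanycytes at a clustering resolution of 0.4, nor for the pars tuberalis with 10 components, so levels in these 2 clusters could not be recomputed there. The ependymal-like cluster also had 5 of 12 tanycyte markers, the cluster named after vascular and leptomeningeal cells (VLMC-like, 180 cells) also had 7 of 7 endothelial and 5 of 6 mural markers, and in the pars tuberalis-like cluster 4 of 7 markers of pituitary cells beyond the pars tuberalis passed. A level in a cluster is its UMIs of a gene per 1000000 UMIs (CPM), with an exact Poisson 95% interval. With 1 library no test between clusters was possible, and all intervals cover counting error only. The 241 erythrocyte-like cells gave the background: 0 to 8.30% of them had a UMI of a given member, at 0 to 10.0 CPM. Their median UMI count was 7747, against 7900 in tanycyte-like and 10554 in OPC-like cells.

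Ccnd2 held most D-type cyclin UMIs of tanycyte-like cells and Ccnd1 most of those of OPC-like cells. UMIs count molecules by their 3' ends, so they were compared between genes without regard to length. Ccnd2 (ENSMUSG00000000184, chr6:127125162-127152193, GRCm38) stood at 390 CPM in tanycyte-like cells (95% interval 362 to 420) and at 364 CPM in ependymal-like cells (308 to 428), with 497 CPM in NK or T cell-like cells (399 to 612). These 3 highest levels could not be ordered by their intervals. Ccnd2 was next at 228 CPM in pars tuberalis-like and 224 CPM in VLMC-like cells, and at or below 109 CPM in the other clusters. With every cell thinned to 1000 UMIs, pars tuberalis-like cells stood at 400 CPM (251 to 606) and tanycyte-like cells at 348 CPM (267 to 447). These intervals overlapped, so the place of pars tuberalis-like cells was not kept on thinning. Thinning also gives each cell equal weight, and the thinned level of pars tuberalis-like cells rested on 22 UMIs in 16 cells. The cause of the shift was not tested. A Ccnd2 UMI was found in 84.8% of tanycyte-like cells (78.7 to 89.8), against 3.73% of erythrocyte-like cells, and after thinning every cell to 1000 UMIs in 24.7% against 0.830%. In OPC-like cells Ccnd2 stood at 72.3 CPM (53.8 to 95.1).

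Ccnd1 (ENSMUSG00000070348, chr7:144929931-144939925) showed the opposite order. It reached 458 CPM in OPC-like cells (409 to 511), 4.65 times the 98.5 CPM of the pars tuberalis-like cluster, which was second. Those 60 cells held 323 of the 557 Ccnd1 UMIs of the library, or 58.0%. Tanycyte-like cells had 41.8 CPM (33.0 to 52.4), against 6.19 CPM in erythrocyte-like cells (3.30 to 10.6). A UMI was found in 26.4% of tanycyte-like cells (20.1 to 33.5), against 5.39% of erythrocyte-like cells (2.90 to 9.05). Neither the levels nor the shares overlapped in their intervals, at median depths of 7900.5 and 7747 UMIs. Thinned to equal depth the shares were 2.81% and 0.830%, from 5 and 2 cells, and these thinned counts were too few to order. No Ccnd1 UMI was seen in 31 NK or T cell-like cells, which allows up to 20.6 CPM by the exact interval. A UMI of both Ccnd1 and Ccnd2 was found in 44 of the 178 tanycyte-like cells and 21 of the 60 OPC-like cells.

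Ccnd3 (ENSMUSG00000034165, chr17:47505051-47599691) had the narrowest range of the cyclins outside erythrocyte-like cells. Its highest level was 202 CPM in VLMC-like cells (178 to 229), which overlapped the intervals of NK or T cell-like and OPC-like cells. The lowest of these was 23.3 CPM in oligodendrocyte-like cells (13.3 to 37.9). NK or T cell-like, OPC-like, unnamed, tanycyte-like and ependymal-like cells lay between 108 and 162 CPM, each overlapping its neighbour. With every cell thinned to 1000 UMIs, OPC-like cells were highest at 267 CPM (152 to 433), against 144 CPM (94.4 to 212) in VLMC-like cells. As shares of all D-type cyclin UMIs of a cluster, Ccnd2 made up 71.0% in tanycyte-like cells (68.1 to 73.8, exact binomial) and 10.7% in OPC-like cells (8.05 to 13.8). Ccnd1 made up 7.62% and 67.6%, while Ccnd3 was alike in both at 21.3% and 21.8%. Any D-type cyclin UMI was found in 92.1% of tanycyte-like and 80% of OPC-like cells, against 12.9% of erythrocyte-like cells.

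**Figure D1:**
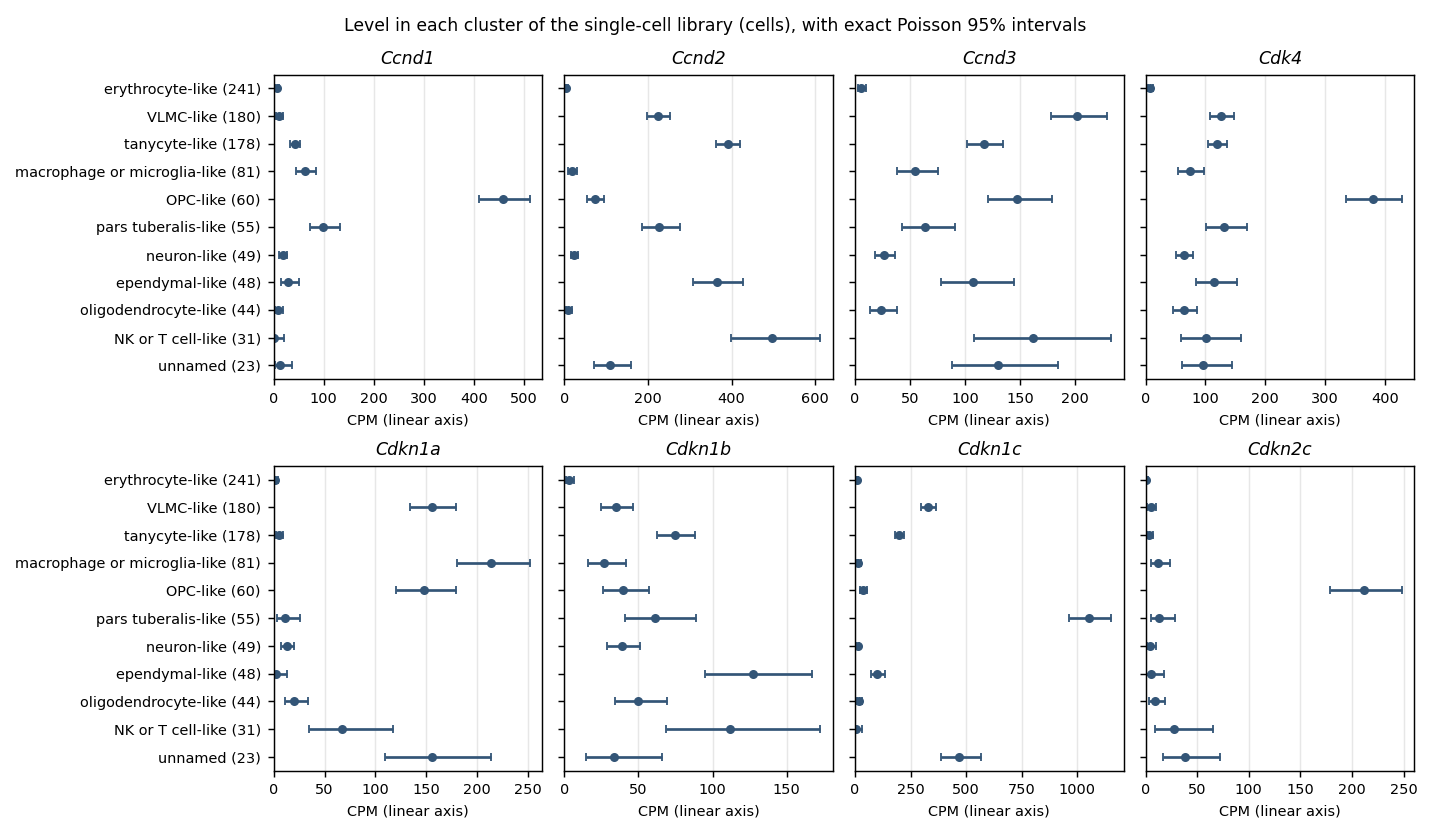
Level (CPM, linear axis) of the 8 members with at least 100 UMIs in each of the 11 clusters of the single-cell library, with the number of cells in brackets. Points are the level over all cells of the cluster and bars the exact Poisson 95% intervals. Ccnd1, Cdk4 and Cdkn2c stand apart in the OPC-like cluster (458, 380 and 211 CPM), and Cdkn1c in the pars tuberalis-like cluster (1053 CPM).

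Cdk4 was measured in every cluster and Cdk6 in almost no cell. Cdk4 (ENSMUSG00000006728, chr10:127063534-127067920), whose window with 4 E-boxes is printed above, reached 380 CPM in OPC-like cells (336 to 428), 2.89 times the next cluster. Pars tuberalis-like, VLMC-like, tanycyte-like, ependymal-like, NK or T cell-like and unnamed cells lay between 96.5 and 131 CPM, with intervals that overlapped from each to the next. A Cdk4 UMI was found in 95% of OPC-like cells (86.1 to 99.0) and in 65.7% of tanycyte-like cells (58.3 to 72.7). Cdk6 (ENSMUSG00000040274, chr5:3341485-3531008) had 24 UMIs in 21 cells of the whole library. Of these, 11 were in macrophage or microglia-like cells (16.2 CPM, 8.09 to 29.0), and 1 was in tanycyte-like cells. The 3' chemistry reads only transcript ends, so these counts are of reads near the 3' end of Cdk6.

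Each Cip/Kip inhibitor had its highest level in another cluster, though for Cdkn1b the highest interval overlapped the next. Cdkn1c (ENSMUSG00000037664, chr7:143458339-143461050), the gene of p57, was highest in pars tuberalis-like cells at 1053 CPM (961 to 1151). Unnamed cells followed at 470 CPM (387 to 565), VLMC-like cells at 330 CPM (299 to 364), tanycyte-like cells at 198 CPM (178 to 220) and ependymal-like cells at 100.2 CPM (71.9 to 136). None of these 5 intervals overlapped the next. OPC-like cells had 36.9 CPM, and neuron-like, oligodendrocyte-like, macrophage or microglia-like and NK or T cell-like cells had 5.59 to 18.9 CPM, near the 10.0 CPM of erythrocyte-like cells. A Cdkn1c UMI was found in 65.2% of tanycyte-like cells (57.7 to 72.1), against 8.30% of erythrocyte-like cells.

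Cdkn1a (ENSMUSG00000023067, chr17:29090976-29100727), the gene of p21, was close to background in tanycytes. Tanycyte-like cells held 9 of its 540 UMIs, at 4.96 CPM (2.27 to 9.41), against 1.43 CPM in erythrocyte-like cells (0.295 to 4.18), and ependymal-like cells held 1 UMI. It was highest in macrophage or microglia-like cells at 214 CPM (180 to 252), followed by VLMC-like (155), unnamed (155) and OPC-like cells (148), which overlapped each other. A UMI was found in 44.4% of macrophage or microglia-like, 38.3% of VLMC-like and 31.7% of OPC-like cells, but in 4.49% of tanycyte-like cells (1.96 to 8.66) against 1.24% of erythrocyte-like cells. The share in tanycyte-like cells is thus near the background.

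Cdkn1b (ENSMUSG00000003031, chr6:134920401-134925513), the gene of p27, had a UMI in every cluster. Outside erythrocyte-like cells (3.34 CPM) it ran from 26.5 CPM in macrophage or microglia-like cells to 127 CPM in ependymal-like cells (94.9 to 167), with 74.3 CPM in tanycyte-like cells (62.3 to 88.0) and 39.7 CPM in OPC-like cells (26.4 to 57.4). Of all Cip/Kip UMIs in tanycyte-like cells, Cdkn1c made up 71.4% (67.3 to 75.3), Cdkn1b 26.8% and Cdkn1a 1.79% (0.819 to 3.36). In ependymal-like cells Cdkn1b made up 55.3% and Cdkn1c 43.6%. In macrophage or microglia-like cells Cdkn1a made up 83.8%, and in OPC-like cells 65.8%.

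**Figure D2:**
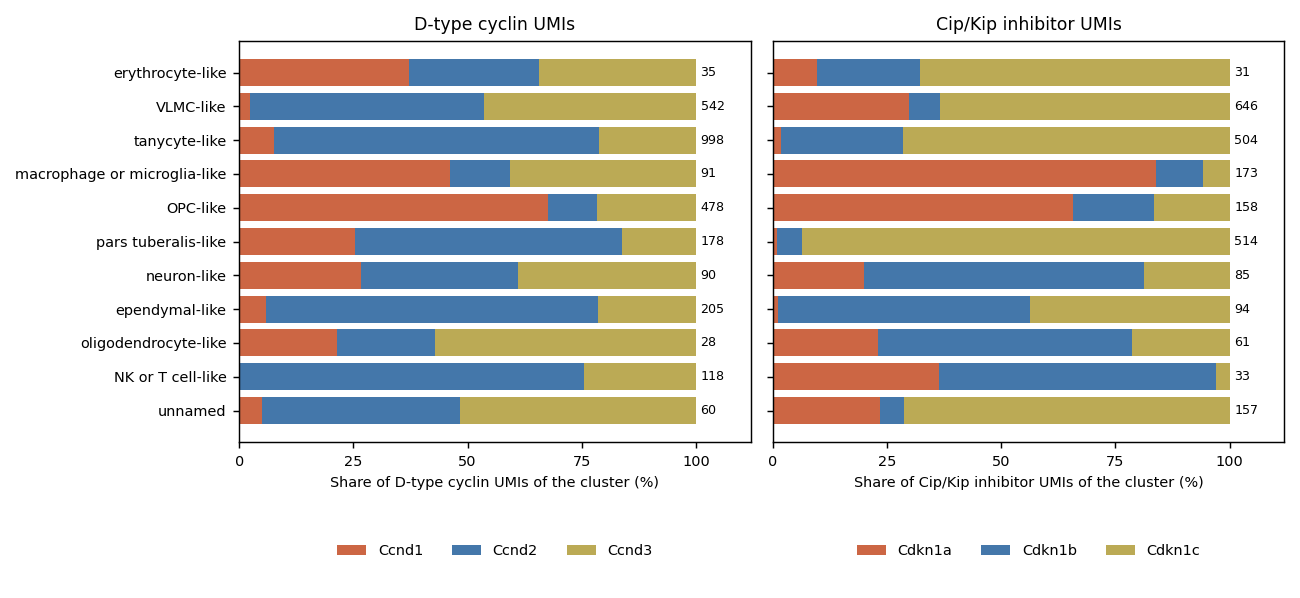
Share (%) of each D-type cyclin (left) and each Cip/Kip inhibitor (right) among the UMIs of that family in each cluster. The number of UMIs behind each bar stands at its end. Ccnd2 makes up 71.0% of the cyclin bar in tanycyte-like cells and 10.7% in OPC-like cells, and Cdkn1c makes up 93.6% of the inhibitor bar in pars tuberalis-like cells.

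Among the INK4 genes, Cdkn2c was concentrated in OPC-like cells and Cdkn2a was barely detected. Cdkn2c (ENSMUSG00000028551, chr4:109660876-109667189), the gene of p18 with 1 of its windows printed above, stood at 211 CPM in OPC-like cells (179 to 248), 5.60 times the next cluster. These cells held 149 of its 204 UMIs. Tanycyte-like cells held 6, at 3.30 CPM (1.21 to 7.19). Cdkn2a (ENSMUSG00000044303, chr4:89274471-89294653) had 10 UMIs in 7 cells of the library, 6 of them in 3 OPC-like cells. It was found in 0 of 178 tanycyte-like cells, and a limit of 3 cells is 1.69% of them. That limit is one on cells with a UMI, and at this depth it does not limit the share of cells that express Cdkn2a.

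Mki67, a gene transcribed in dividing cells, had 74 of its 80 UMIs in 11 OPC-like cells and none in tanycyte-like cells, which allows up to 2.03 CPM there by the exact interval. Split by a Mki67 UMI, the 11 OPC-like cells with one had a median of 17691 UMIs and the 49 without one 10097. Cdkn2c differed most between them, at 747 CPM (620 to 892) with Mki67 and 49.8 CPM (32.8 to 72.5) without, so that 11 cells held 122 of the 149 Cdkn2c UMIs of the cluster. Ccnd1 stood at 728 CPM (603 to 872) against 377 CPM (327 to 432), Ccnd3 at 251 against 116 CPM, and Cdkn1a at 299.95 CPM (222 to 397) against 102 CPM (76.5 to 132). The intervals of Cdk4 overlapped, at 306 CPM (227 to 404) against 402 CPM (351 to 460), as did those of Ccnd2, Cdkn1b and Cdkn1c. Of 6 oligodendrocyte lineage genes read in both sets, Gpr17 (875 against 288 CPM) and Sox10 (449 against 226 CPM) were higher without Mki67, and Pdgfra (471 against 255 CPM) was higher with it. The intervals of Cspg4, Olig2 and Mog overlapped.

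**Figure D3:**
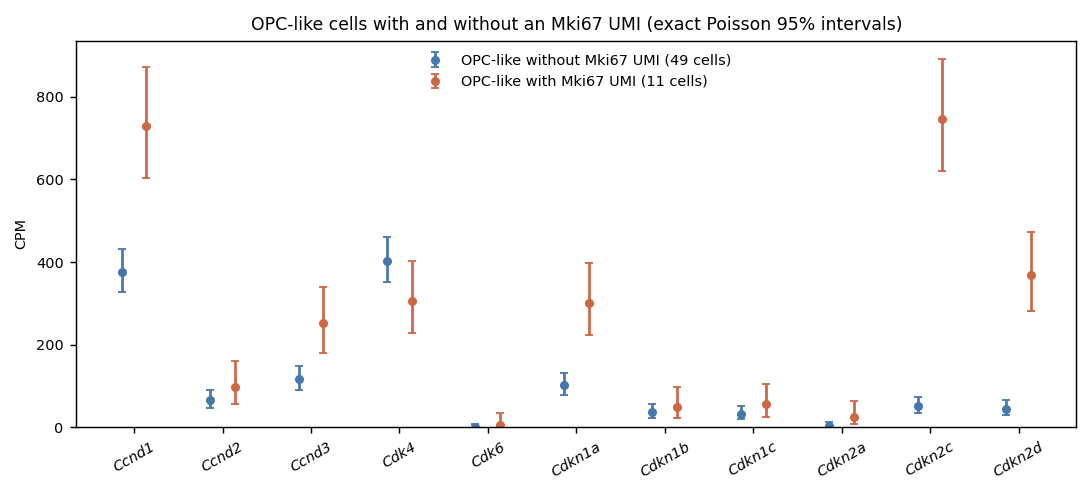
Level (CPM) of the 10 members and of Cdkn2d in the 11 OPC-like cells with a Mki67 UMI and the 49 without one, with exact Poisson 95% intervals. Cdkn2c stands at 747 CPM with Mki67 and 49.8 CPM without, while the intervals of Cdk4, Ccnd2, Cdkn1b and Cdkn1c overlap.

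Within tanycyte-like cells, 1 member differed beyond counting error. At a finer resolution the 178 cells divided into 101 cells led by Lect1, Ptgs1 and Pdgfd (median 6714 UMIs) and 77 cells led by Maff, Cxcl10 and Nfatc2 (median 12315 UMIs). Ccnd2 was at 324 CPM (284 to 369) in the first and 433 CPM (395 to 474) in the second. The intervals of the other 9 members overlapped, with Cdkn1c at 173 (143 to 206) and 215 CPM (188 to 244) and Cdkn1a at 4.21 and 5.44 CPM. Overlap does not show that levels are equal. The 180 VLMC-like cells divided into 125 and 55 cells, whose intervals did not overlap for the members named next. Cdkn1c stood at 178 CPM (151 to 209) in the first and 671 CPM (591 to 758) in the second, Cdkn1a at 118 and 240.0 CPM, and Ccnd3 at 158 and 300.1 CPM. A Cdkn1c UMI was found in 78 of the 125 cells and 46 of the 55. The endothelial genes Cldn5 and Plvap were also higher in the second (31.3 against 0 CPM and 183 against 36.1 CPM), but all 12 Cldn5 UMIs there were in 1 cell and all 70 Plvap UMIs in 3 cells.

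In the bulk libraries, where CPM are reads per 1000000 after scaling by TMM factors, the members are compared between mutant and control ME, where fewer cells of a type and less RNA per cell cannot be told apart. Of the 10, 9 passed the filter on low counts, and 0 were called at an adjusted p under 0.05 (edgeR's quasi-likelihood test, Benjamini-Hochberg over 20466 genes), where 0% of all tested genes were called. Over all genes, edgeR's likelihood ratio test called 249 of the same 20466. DESeq2 called 363 and the quasi-likelihood test without a filter on low counts 233, both out of 47682 genes with a count. Each of these fits called 2 of the members, Cdkn1a and Cdkn1c. Both were also the members at an unadjusted p under 0.05 (2 of 9, against 8.18% of all tested genes). They were the members whose groups did not overlap, 1 higher in mutants (5.83% of all tested genes) and 1 lower (3.18%). All p-values measure the spread between single mice of each group.

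V600E is a change in the Braf protein, which counts per gene cannot show. Braf stood at 33.8, 16.8 and 13.0 CPM in the controls and 13.9, 25.2, 21.7 and 28.4 CPM in the mutants (log2 fold change 0.07, SE 0.43). ERK output genes, transcribed when the RAF-MEK-ERK cascade is active, were positive for 13 of 14 tested, against 56.7% of all tested genes. Their median log2 fold change was 1.05, against 0.13 over all tested genes. In 5 of the 14 the groups did not overlap, all higher in mutants (5.83% of all tested genes), and 0 were past the threshold. Etv4 stood at 2.37, 5.42 and 0.0856 CPM in controls and 21.9, 15.3, 22.2 and 32 CPM in mutants. Etv4 and Etv5 encode ETS transcription factors, and their adjusted p was 0.435. Etv5 ran from 10.1 to 85.8 CPM in controls and from 171 to 274 CPM in mutants, without overlap. Of the other named genes of this list, Etv1 was 62.0 to 67.9 CPM in controls and 77.7 to 127 CPM in mutants, and Spry2, a feedback inhibitor, had a log2 fold change of -0.08. Rax, the gene of the Cre driver, overlapped between groups at 26.8 to 143 and 33.2 to 175 CPM. In the single cells Rax stood at 539 CPM in tanycyte-like cells (506 to 574) and 606 CPM in ependymal-like cells (533 to 687), and at 94.1 CPM or less in all other clusters.

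Among the D-type cyclins, no group stood apart from the other. Ccnd1 was 54.6, 105 and 47.7 CPM in the controls and 154, 55.1, 93.5 and 174 CPM in the mutants. Mutants 1 and 4 lay above all controls, and mutants 2 and 3 lay within their range (log2 fold change 0.78, SE 0.44, edgeR adjusted p = 0.697). Of the 50-base stretches of Ccnd1, 21.6% are shared with LTO1, a gene on the opposite strand. Reads in those stretches alone cannot be assigned to 1 of the genes, since the bulk libraries do not mark strand. The same holds for Cdkn1c and Gm44732 (24.9%), Cdk4 and Tspan31 (17.0%) and, for 3.32 to 8.49% of the stretches, the other 4 members with an opposite-strand neighbour.

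The summed level of 8 OPC markers, of which 0 were called, was 128, 156 and 118 CPM in controls 1 to 3 and 678, 273, 303 and 923 CPM in mutants 1 to 4, with no overlap, and 8 of 8 markers had a positive log2 fold change. Within the 3 controls and within the 4 mutants, the libraries took the same order for Ccnd1 as for this sum, and OPC-like cells had the highest Ccnd1 level among the single cells. Cdk4 and Cdkn2c were also highest in OPC-like cells, but their bulk groups overlapped, with log2 fold changes of 0.12 and -0.33. Of the 8 OPC markers, Vcan was also used as a marker of tanycytes, Pdgfra of VLMC and Cspg4 of mural cells. The part of OPC number in the Ccnd1 levels was not tested.

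Ccnd2, of whose UMIs tanycyte-like cells held 48.4%, was 126, 127 and 221 CPM in controls and 117, 126, 155 and 90.8 CPM in mutants (log2 fold change -0.37, SE 0.31, edgeR adjusted p = 0.816). Mutants 1 and 4 lay below all controls, and mutants 2 and 3 within their range. Ccnd3 was 117, 222 and 190 CPM in controls and 220, 140, 131 and 140 CPM in mutants (log2 fold change -0.16, SE 0.31, edgeR adjusted p = 0.938). Its sign turned with the number of detected genes as a covariate and without control 2. Per kilobase of exon, Ccnd1 made up 30.2, 36.6 and 18.3% of the D-type cyclin level in the controls and 46.7, 28.5, 38.8 and 59.0% in the mutants. Ccnd2 made up 34.8, 22.1 and 42.5% and 17.7, 32.6, 32.1 and 15.4%. Mutant 2 lay within the range of the controls for both.

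The kinases did not separate the groups. Cdk4 was 139, 165 and 171 CPM in controls and 231, 120, 143 and 194 CPM in mutants (log2 fold change 0.12, SE 0.29, edgeR adjusted p = 0.954). It was the highest member per kilobase of exon, at a mean of 48.7 CPM in controls and 52.9 CPM in mutants. Cdk6 was 6.10, 0.533 and 2.14 CPM in controls and 4.0, 2.29, 11.4 and 7.33 CPM in mutants (log2 fold change 1.09, SE 0.96, edgeR adjusted p = 0.830), and per kilobase it lay at 0.209 and 0.446 CPM. The lowest control rested on 6 reads.

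**Figure D4:**
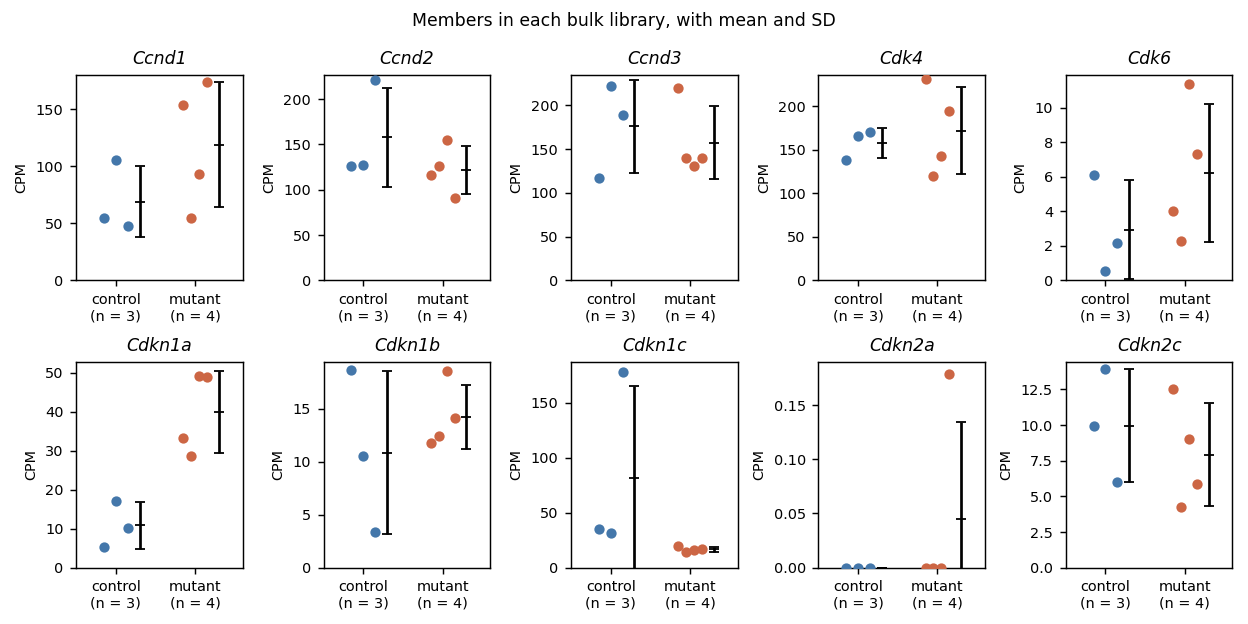
Level (CPM after TMM scaling) of each of the 10 members in the 3 control and 4 mutant bulk libraries, with 1 point a library and the mean with its SD beside them; axes start at 0, and the control SD of Cdkn1c reaches below it. Cdkn1a (5.20 to 17.1 against 28.6 to 49.1 CPM) and Cdkn1c (31.2 to 178 against 14.1 to 19.8 CPM) do not overlap between groups.

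Cdkn1a and Cdkn1c, the Cip/Kip pair, were the members that parted most between the groups, in opposite directions. Cdkn1a was 5.20, 17.1 and 10.2 CPM in controls and 33.3, 28.6, 49.1 and 48.8 CPM in mutants. The means were 10.8 ± 6.00 CPM (SD, n = 3) and 39.9 ± 10.6 CPM (SD, n = 4). All mutants lay above all controls (log2 fold change 1.88, SE 0.45, 3.67-fold, edgeR adjusted p = 0.366). DESeq2 gave an adjusted p of 0.0151 and the likelihood ratio test 0.0241, and the adjusted p over all 17 alternative fits ran from 0.0151 to 0.9995. Its log2 fold change was positive in all of them, between 1.51 and 2.38.

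Cdkn1c was 35.1, 31.2 and 178 CPM in controls and 19.8, 14.1, 16.2 and 17.2 CPM in mutants. The mutants lay below all controls and close together, and control 3 stood far above the other controls (log2 fold change -2.28, SE 0.56, edgeR adjusted p = 0.366). The means were 81.4 ± 83.6 CPM (SD, n = 3) and 16.8 ± 2.37 CPM (SD, n = 4). Without control 3 the log2 fold change was -0.97, and with the number of detected genes as a covariate it was -1.08. DESeq2 gave an adjusted p of 0.0176 and the likelihood ratio test 0.0173, and over the alternative fits the adjusted p ran from 3.83e-05 to 0.9995, with a log2 fold change between -2.66 and -0.97.

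Marker sums of several cell types are given beside these 2 genes, with 0 markers of any type called. Summed VLMC markers were 1200 to 2962 CPM in controls and 501 to 883 CPM in mutants, and summed endothelial markers 453, 311 and 249 CPM in controls and 80.3 to 158 CPM in mutants, both without overlap, with 5 of 6 and 6 of 7 markers negative. Pars tuberalis markers were 4875, 1473 and 1381 CPM in controls and 446 to 1457 CPM in mutants, with 4 of 7 negative. Among the single cells, the pars tuberalis-like cluster held 32.3% and the VLMC-like cluster 27.5% of all 1491 Cdkn1c UMIs (481 and 410). The tanycyte-like cluster held 360 of them. Control 3, with the highest Cdkn1c, had the highest VLMC sum (2962 CPM) and the lowest pars tuberalis sum of the controls. Control 2, with the lowest Cdkn1c of the controls, had a VLMC sum of 2805 CPM, against 1200 CPM in control 1. Tanycyte markers overlapped, at 1035 to 1270 CPM in controls and 894 to 1434 CPM in mutants, and markers of other pituitary cells ran from 708 to 15296 CPM and from 977 to 20205 CPM. In each of these lists 0 markers were at 0 in all libraries.

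For Cdkn1a, the clusters with the highest levels were macrophage or microglia-like, VLMC-like, unnamed and OPC-like. In bulk, macrophage and microglia markers summed to 1072 to 3342 CPM in controls and 657 to 1589 CPM in mutants (8 of 8 negative), VLMC markers were lower in mutants and OPC markers higher. The part of any of these cell types in the Cdkn1a and Cdkn1c levels was not tested.

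Cdkn1b was 18.6, 10.6 and 3.34 CPM in controls and 11.8, 12.4, 18.5 and 14.1 CPM in mutants, with control 1 the highest of all 7 (log2 fold change 0.39, SE 0.56, edgeR adjusted p = 0.911). Cdkn2c was 9.94, 13.9 and 5.99 CPM in controls and 12.5, 4.27, 9.02 and 5.90 CPM in mutants (log2 fold change -0.33, SE 0.56, edgeR adjusted p = 0.929). Cdkn2a had 1 read in all 7 libraries, in mutant 4, and was not tested. A limit of 3 reads stands at 0.257 to 0.536 CPM in these libraries. Its neighbour Cdkn2b, the gene of p15, was 1.69, 3.46 and 10.6 CPM in controls and 10.2, 13.0, 11.4 and 15.4 CPM in mutants, so that control 3 alone overlapped the mutants (log2 fold change 1.24, SE 0.65, edgeR adjusted p = 0.662).

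Mki67 was 6.78, 3.73 and 17.2 CPM in controls and 6.29, 1.77, 7.18 and 13.8 CPM in mutants, with mutant 2 the lowest and control 3 the highest library (log2 fold change -0.36, SE 0.75, edgeR adjusted p = 0.944). Of 54 tested G2/M-phase genes, 43 were positive, with a median log2 fold change of 0.91. An unadjusted p under 0.05 was found for 4 of the 54, all higher in mutants. Over all tested genes it was found for 8.18% in either direction, and for 862 of 20466 higher in mutants. In 7 of the 54 the groups did not overlap, all higher in mutants (13.0%, against 5.83% of all tested genes). In 41 S-phase genes the counts were 20 positive and 21 negative (median -0.05), and in 20 genes of the G1/S machinery outside the members 13 positive (median 0.23). Over all tested genes 56.7% were positive, with a median of 0.13, or 0.25 when libraries were scaled by their totals alone.

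Several of the G2/M and S-phase genes with the largest positive values were at 0 reads in a control library, so their fitted folds rest on few reads. For Ect2, Ndc80, Uhrf1 and Dtl this was control 3, and for Ndc80 also control 2. Those libraries had the fewest detected genes (17874 and 21986), and the part of detection in these values was not tested. Ect2, needed for cytokinesis, was 2.37, 0.533 and 0 CPM in controls and 2.81 to 12.7 CPM in mutants, and Ndc80, a kinetochore subunit, was 2.37, 0 and 0 CPM and 3.30 to 8.35 CPM. Uhrf1, a partner of the maintenance DNA methyltransferase, was 5.31, 4.44 and 0 CPM and 7.71 to 14.1 CPM, and Dtl, a replication-coupled ubiquitin ligase subunit, was 1.47, 0.444 and 0 CPM and 0.300 to 7.51 CPM. Cks1b, which binds CDKs, was 14.2, 19.8 and 61.7 CPM in controls and 10.8 to 21.8 CPM in mutants (log2 fold change -1.04), while the cytokinesis kinesin Kif23 was 0 to 13.0 and 0.600 to 8.04 CPM. Of the S-phase genes lower in mutants, Tipin, of the replication fork, was 31.6, 62.2 and 91.5 CPM in controls and 33.7, 18.9, 30.4 and 30.7 CPM in mutants (log2 fold change -1.12, edgeR adjusted p = 0.502), and Cdc45, of the replicative helicase, 6.66 to 15 and 2.17 to 10.2 CPM. In the G1/S list, Ccne1, the cyclin that follows cyclin D, was 5.54 to 14.1 CPM in controls and 2.81 to 7.18 CPM in mutants (log2 fold change -0.94, SE 0.60). Skp2, a ubiquitin ligase subunit that marks p27 for destruction, was 1.24 to 24.6 and 4.90 to 14.8 CPM, and E2f7 was 3.73, 0 and 0 CPM against 0.0999 to 7.86 CPM.

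**Figure D5:**
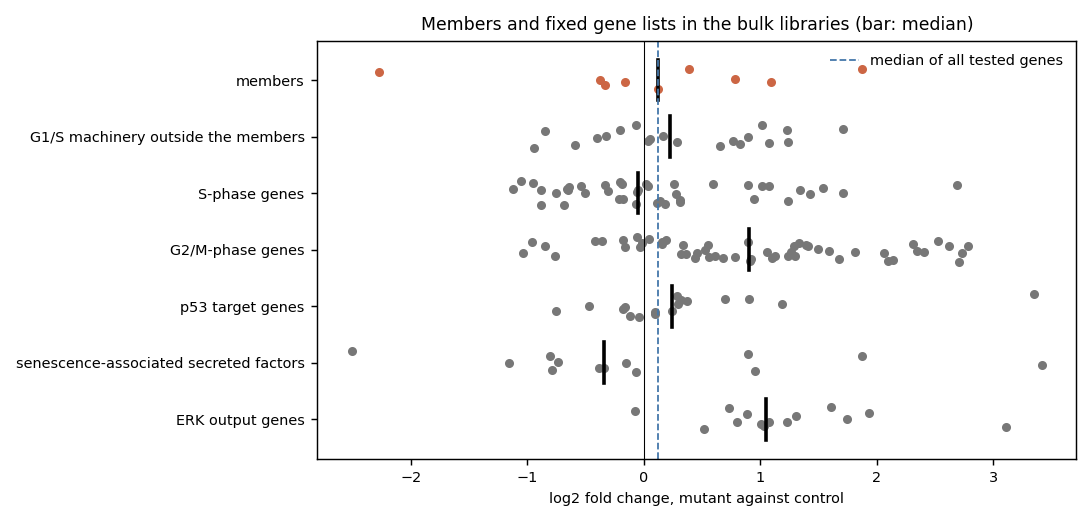
Log2 fold change of mutant against control for the tested genes of each list (1 point a gene, bar at the median), with the members in orange and the median of all tested genes (0.13) as a dashed line. The medians of ERK output genes (1.05) and G2/M-phase genes (0.91) lie above it, and that of secreted factors (-0.34) below.

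Genes known from p53 activation and senescence, read beside Cdkn1a, had values in both directions. Of 17 tested p53 target genes other than Cdkn1a, 11 were positive and 6 negative, with a median log2 fold change of 0.24 and 0 at an unadjusted p under 0.05. Plk2 was 30.6 to 119 CPM in controls and 42.3 to 71.6 CPM in mutants, and Sesn1 71.0 to 159.5 and 67.0 to 113 CPM. Pmaip1, which promotes apoptosis, was 0.565, 0 and 0 CPM in controls and 0.104 to 2.84 CPM in mutants, and the death receptor gene Tnfrsf10b was 0 to 5.31 and 2.40 to 7.51 CPM. Of 13 tested senescence-associated secreted factors, 4 were positive and 9 negative, with a median of -0.34, and 3 had an unadjusted p under 0.05, all lower in mutants, as many as did not overlap (3.18% of all tested genes were lower without overlap). Igfbp5 was 363, 339 and 343 CPM in controls and 130, 212, 168 and 114 CPM in mutants, without overlap (log2 fold change -1.16, SE 0.28, edgeR adjusted p = 0.366). Igfbp7, also a leading gene of VLMC-like cells, was 72.2, 59.4 and 164 CPM and 47.2, 7.71, 6.51 and 7.33 CPM (log2 fold change -2.51, SE 0.72, edgeR adjusted p = 0.435). Il1b and Ccl2 overlapped between groups, with 18.4 and 21.9 CPM in mutant 3 and at most 7.02 CPM in the other libraries.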

How the data were processed

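Single-cell RNAseq was performed by the authors on 1 pooled library and bulk RNAseq (Smart-seq2) on 7. The authors deposited UMI counts per gene and cell, from Cell Ranger (2.0.1 in the submitters' processing notes, which also name GRCm38, mm10 and DESeq2), and raw read counts per Ensembl gene; the bulk counting tool is not given in the sources used here, and neither table is normalized. The members and lists were chosen with earlier results of these data known. All members are named, with list genes of the 2 largest positive and negative values at a mean of 1 CPM or more; Cdkn2d, the endothelial genes and the oligodendrocyte lineage genes read in single cells were added after values were seen.

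For the bulk table, low counts were filtered by group, TMM factors set and edgeR's quasi-likelihood test (edgeR 4.0.16, R 4.3.3) run, with a threshold of 0.05 on Benjamini-Hochberg adjusted p. DESeq2 1.42.0, limma 3.58.1 and other scalings, filters and samples were tried. Cells were clustered in Seurat 5.3.0 without members and list genes (4747 variable genes, 20 components, resolution 0.8). Clusters were named when at least 3 markers stood at 3 times other cells; that these be at least 50% of the type's markers was set after seeing the data. Scrublet in scanpy 1.11.5 called 3 of 990 cells doublets, which were kept. Intervals were computed with scipy 1.17.1 in Python 3.11.15. Annotation was GENCODE M21 and RefSeq GRCm38.p6. Scripts were tested on simulated data.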

Additional observations from a re-analysis of the deposited data

Results flagged for a closer look

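Ccnd3 in mutant 1 stood apart from the other mutant libraries, at 219.5 CPM against 140.1 CPM in the nearest of them, by Dixon's criterion for groups of 4. About 1 in 20 such groups passes it by chance, and 13 genes were looked at. Mutant 1 was also among the libraries with the fewest detected genes (25910); the part of this in its Ccnd3 level was not tested.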

How the results depend on the processing

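The quasi-likelihood test called 0 of all genes and 0 members. Over all genes, 363 were called by DESeq2, 249 by the likelihood ratio test, 233 without a filter on low counts, 47 by limma-voom with library weights, 14 at an adjusted p under 0.1, 13 with at least 10 counts in every library, 5 with upper-quartile factors, 1 with library sizes alone, 1 with detected genes as a covariate, and 0 to 42 with 1 library left out (42 without control 1, 21 without control 3). Members called were 2 (Cdkn1a and Cdkn1c) by DESeq2, 2 by the likelihood ratio test and 2 without a filter, and 0 otherwise. Fits with the replicate number as a block called 0 genes and 0 members. Deviations from the group mean in same-numbered libraries correlated at -0.45, -0.01 and -0.23. With so few libraries that differ in detected genes, these values cannot decide whether the numbers pair mice. Members without overlap were 2 to 4 with 1 library left out (4 without control 1, where Cdk6 and Cdkn1b join, and 3 without control 2, where Ccnd1 joins). With fewer libraries the groups of any gene part more easily, and the share over all tested genes was not computed for these sets. Signs turned for Cdk4 with library weights (-0.0155), for Ccnd3 (0.36) and Cdkn1b (-0.26) with the detected genes as a covariate, and with 1 library left out, over ranges of -0.41 to 0.063 for Ccnd3, -0.62 to 0.0017 for Cdkn2c, -0.0382 to 0.998 for Cdkn1b and -0.0391 to 0.27 for Cdk4. The cause was not tested. In single cells, the cluster with the highest level was kept for 6 to 8 of 8 members over 8 settings, no cluster was named tanycyte-like at resolution 0.4 or pars tuberalis-like with 10 components, and 15 of 133 levels recomputed left their interval, 9 of them on thinning to 1000 UMIs. For Cdk6 (24 UMIs) and Cdkn2a (10 UMIs), the highest cluster could not be told from the next.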

Other observations

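Another pair of INK4 genes outside the members was read in the same cells. Cdkn2d, the gene of p19Ink4d, was 119 CPM in OPC-like cells (95 to 147) and 100.2 CPM in neuron-like cells (84 to 119). A Cdkn2d UMI was found in 83.7% of neuron-like cells, whose median was 31422 UMIs. With every cell thinned to 1000 UMIs the share was 6.12%, against 6.18% of tanycyte-like cells. At full depth tanycyte-like cells had 59.5 CPM (48.8 to 71.8), and NK or T cell-like cells held 1 UMI. In OPC-like cells with a Mki67 UMI Cdkn2d stood at 367 CPM (280 to 473), against 44.3 CPM (28.4 to 65.9) without one. In bulk, Cdkn2d was 75.1, 66.1 and 103 CPM in controls and 57.6, 60.5, 48.1 and 50.4 CPM in mutants, without overlap (log2 fold change -0.59, SE 0.27, edgeR adjusted p = 0.620). Cdkn2b had 18 UMIs in the library, 7 of them in tanycyte-like cells (3.85 CPM, 1.55 to 7.94).

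Over the 11 clusters, the genes whose log2(CPM + 1) followed a member most closely among 8786 genes with at least 100 UMIs were Sipa1l2 for Ccnd1 (Pearson r = 0.919), Pigh for Ccnd2 (0.938), Svil for Ccnd3 (0.965) and Top2b for Cdk4 (0.991). They were Sdf2l1 for Cdkn1a (0.900), Trappc6a for Cdkn1b (0.959), Ccdc8 for Cdkn1c (0.959) and Kcnip3 for Cdkn2c (0.890). Second were Soga1 (0.888), Tmem238 (0.936), Cdc42ep3 (0.956), March5 (0.981), Ifnar2 (0.887), Vps45 (0.956), Sulf1 (0.938) and Fkbp15 (0.884) in the same order. The points are clusters of 1 library that differ in depth, and these values are a description.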
